A study of Drosophila melanogaster with 7 samples.

Results

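The cytosolic ribosomal protein genes of Drosophila melanogaster were taken as every gene whose symbol begins with RpL (large subunit) or RpS (small subunit). Symbols that contain "like" and genes on chromosome 4 were left out. This gave 86 genes, 50 of the large and 36 of the small subunit, of 17753 genes in the count table of whole gene bodies. All 86 are also in the table counted over exons and repeats. Nascent transcription was measured by Gro-seq, global run-on sequencing of the RNA that engaged polymerases extend in isolated nuclei. Hand-staged embryos of cycle 14, the stage of zygotic genome activation (ZGA), were used to ask how transcription changes without the H3K9 methyltransferases. Triple mutant (TM) embryos, 4 libraries, came from mothers with a knockout of Su(var)3-9 and with dSetDB1 (egg) and G9a knocked down by shRNAs. The shRNAs were under mat-tub-Gal4 on the 2nd chromosome, a driver of the maternal germline. In the paper's cross, females and males were both homozygous for the knockout. Their offspring, the parents of the embryos, thus carried it in both sexes. Control (ctr) embryos, labelled wildtype, 3 libraries, came from the TRiP control line. The labels code the crosses NI762xNI746 (TM) and T180xNI746 (ctr), so both share a parent line NI746 that the labels do not describe. The paper does not say whether NI746 is its line of males with the driver and the knockout. Whether ctr mothers carried either is thus not known. Each library was a separate biological replicate pooled from 500 embryos. A level is thus an average over all nuclei of the embryo, and fewer transcribing nuclei cannot be told apart from less transcription per nucleus.

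Every cytosolic ribosome holds 1 copy of nearly every one of these proteins, so their genes are transcribed together at high rates in growing cells. Flies that lose 1 copy of many of them show the Minute phenotype of slow development and short bristles. Many fly ribosomal protein genes start transcription at a polypyrimidine TCT initiator in place of the common initiator and have no TATA box. Many carry small nucleolar RNAs (snoRNAs, guides for the modification of rRNA) in their introns. A few proteins are encoded by a pair of genes, of which 1 is often used mainly in the germline. Early embryos live on ribosomes and mRNAs loaded by the mother, and Gro-seq is designed to read the RNA being transcribed and not the maternal mRNA. Carry-over of maternal RNA into the libraries was not tested.

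The promoters were read from the Release 6 (dm6) genome from 250 bases before to 50 after each gene's annotated start. The letters TATCGATA, the DNA replication-related element (DRE) bound by Dref, were found on either strand in 26 of 86 members (30.2%), against 9.29% of all 13827 protein-coding genes and 12.4% of the protein-coding genes tested. CTTT, the core of the TCT initiator, began within 5 bases of the start on the sense strand in 30 members (34.9%), against 5.58% of all protein-coding genes and 4.17% of 72 mitochondrial ribosomal protein genes. With the start of the canonical transcript in place of the gene start, an alternative chosen after seeing the data, CTTT was there in 40 members (46.5%), against 5.71% of all protein-coding genes. GGTCACAC, the core of Ohler motif 1, was found on either strand in 13 members (15.1%), against 7.72%. TATAAA stood 40 to 20 bases before the start in 1 member (1.16%), against 7.80%, and CAGGTAG, bound by the pioneer factor Zelda, on either strand in 0 members, against 1.64%. No letter string holds another. The counts are descriptions, and no match was tested as a site of use.

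The windows below run from 80 bases before the start to 9 bases after it, in dm6 coordinates, with DRE, GGTCACAC and the start-site CTTT in capitals. They are shown for RpL3 and RpL26, the 2 members that passed the test of TM against ctr, and for RpL21, which had the lowest log2 fold change. RpL32 (rp49) is a common RT-qPCR reference gene. The last lines are the tandem pair RpS14a and RpS14b.
RpL3, chr3R:11221814-11221903, plus strand: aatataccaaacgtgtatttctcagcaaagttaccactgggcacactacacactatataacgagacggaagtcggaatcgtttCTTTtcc
RpL26, chr3L:18898795-18898884, plus strand: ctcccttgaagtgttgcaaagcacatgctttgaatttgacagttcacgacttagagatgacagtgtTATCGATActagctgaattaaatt
RpL21, chr2L:22247866-22247955, minus strand: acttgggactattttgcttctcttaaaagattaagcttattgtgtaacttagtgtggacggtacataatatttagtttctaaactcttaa
RpL32, chr3R:30046152-30046241, minus strand: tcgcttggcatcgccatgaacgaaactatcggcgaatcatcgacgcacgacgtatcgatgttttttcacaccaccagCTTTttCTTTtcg
RpS14a, chrX:7933662-7933751, plus strand: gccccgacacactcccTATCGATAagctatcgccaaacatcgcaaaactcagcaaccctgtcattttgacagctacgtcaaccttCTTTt
RpS14b, chrX:7934818-7934907, plus strand: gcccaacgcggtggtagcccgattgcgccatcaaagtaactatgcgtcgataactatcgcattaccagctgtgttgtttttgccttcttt
At the annotated gene start, RpL3 and RpL32 held CTTT and no DRE, and RpL26 held a DRE 14 bases before it and no CTTT. RpS14a held both, and RpL21 and RpS14b held neither. The CTTT of RpS14a begins 5 bases after the start, the last place allowed. The RpS14b window ends in cttt, which begins just beyond that limit. The canonical transcripts of RpL26, RpL21 and RpL32 start at 18899104, 22247833 and 30046140, outside the windows shown. The windows do not show the motifs at those starts.

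Gene-body totals were 18889493 to 22200059 counts in TM and 19547254 to 21298129 in ctr libraries. Exon-table totals, repeats included, were 33119922 to 35131766 in TM and 29391697 to 31509516 in ctr libraries. The targeted genes do not check the labels. Knockdown of egg and G9a acts after transcription, and they had log2 fold changes of 0.13 and -0.02 (adjusted p = 0.729 and 0.930, edgeR's quasi-likelihood test, gene-body table). Su(var)3-9, which shares its locus with another gene, has 0 gene-body counts in every library. In the exon table it had 119 to 131 CPM in TM and 135 to 156 CPM in ctr libraries (log2 fold change -0.20, adjusted p = 0.201), so its loss in TM does not show there. Of 8 genes of cycle 14 embryos, 7 had gene-body counts in every library, with 3912 to 8947 summed CPM (counts scaled to a common library size) in TM and 5038 to 6193 in ctr libraries. Among them slam had 113354, 73626, 61880 and 27031 counts in TM 1 to TM 4, against 41657 to 53560 in ctr libraries. Counts of nullo fell likewise from 1524 to 81 and of bnk from 14573 to 4266, against 58 to 191 and 4056 to 5697 in ctr. Those of sna and twi fell less, and ftz and eve did not fall in that order. Whether the TM libraries differ in stage was not tested. The 5 genes of later tissues summed to 2.25 to 6.30 CPM in TM and 0.104 to 3.37 in ctr libraries in the gene bodies, with Mlc1 and ninaE at 0. In the exon table Mlc1 was again at 0, but ninaE had 309 to 406 counts across the libraries. Hml had 118 to 333, Cpr67B 234 to 404 and Mhc 27 to 99 there. The gene-body 0 of ninaE thus stood beside exon-table counts, whose strand setting is not given. The reason for that 0 was not tested. The 8 chorion and vitelline membrane genes of ovarian follicle cells summed to 24.4 to 86.1 CPM in TM and 62.9 to 142.8 in ctr libraries. Their part in the results that follow was not tested.

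The ribosomal protein genes had high levels per kilobase of gene body at this stage, and their share of all counts overlapped between the groups. They held 0.657%, 0.697%, 0.675% and 0.723% of gene-body counts in the TM libraries (mean 0.688% ± 0.029, SD, n = 4), against 0.684%, 0.646% and 0.686% in the ctr libraries (mean 0.672% ± 0.022, SD, n = 3). The groups overlapped, and of gene counts in the exon table the share was 0.657% ± 0.022 in TM and 0.663% ± 0.018 in ctr (SD, n = 4 and 3). Per kilobase of gene body, on the CPM scale after TMM (trimmed mean of M values) scaling, the median over the 83 members that averaged 10 or more counts over the libraries was 55.4 CPM, against 10.8 CPM over the 9630 protein-coding genes that passed the same filter. That median lay at the 92.1st percentile of those genes. In all, 78 of 83 members were above their median, and 47 were in their top 10%. Genes were not matched for length in this comparison. By library the member median was 53.0 to 59.0 CPM per kilobase in TM and 50.9 to 56.3 in ctr. The subunits had medians of 51.4 (large) and 56.0 (small). The other 3 members did not pass the filter: RpL10Aa and RpS10a had few counts, and RpS6 had 0.

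**Figure D1:**
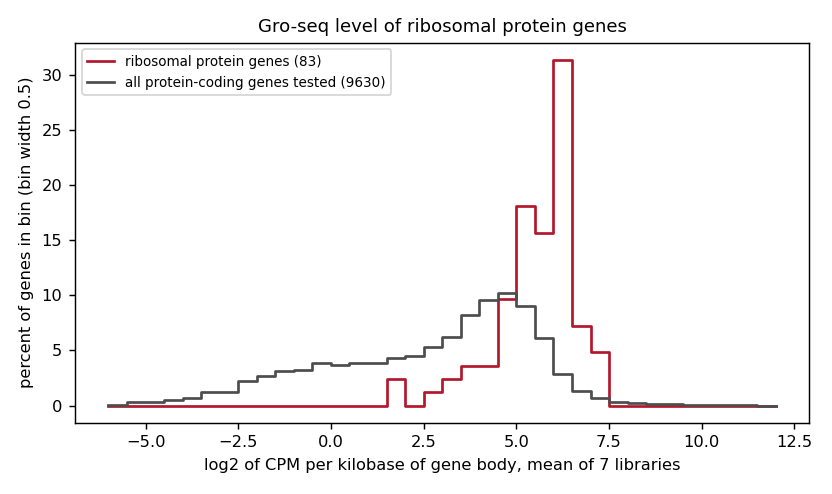
Distribution of levels, as the log2 of CPM per kilobase of gene body averaged over the 7 libraries (horizontal axis) and the percent of genes in each bin (vertical axis), for the 83 ribosomal protein genes (red) and the 9630 protein-coding genes tested (grey). The ribosomal protein genes lie to the right, around a median of 55.4 CPM per kilobase, against 10.8 for all.

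Over all libraries the highest member was RpL3, a large subunit protein near the peptidyl transferase centre. It had 149.8 ± 7.10 CPM per kilobase of gene body in TM and 182 ± 11.1 in ctr (SD, n = 4 and 3). RpL27A followed at 150.6 ± 13.2 in TM and 148 ± 6.18 in ctr, and RpL41, the smallest ribosomal protein, at 140.5 ± 10.4 in TM and 158 ± 21.4 in ctr. RpL38 had 134 ± 19.0 in TM and 153 ± 28.5 in ctr. RpL40, made as a fusion with ubiquitin, had 129 ± 14.1 in TM and 125 ± 18.1 in ctr. Neighbours in this order differed by less than their SD in TM, so the order is not resolved there. Over exons the order differed: RpL41 led, and RpL3 was 5th and RpL27A 4th. At the other end stood minor copies of pairs, RpS19b at 3.72, RpS28a at 3.49, RpL10Aa at 0.422 and RpS10a at 0.369 CPM per kilobase over all libraries, and RpS6.

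RpS6, the small subunit protein phosphorylated by S6 kinase, shows what the counting does to a member. Reads that overlap more than 1 gene were not counted by the authors. Annotated genes on the same strand, CR33222 and a nested snoRNA, together cover all but 1.70% of RpS6. RpS6 thus has 0 gene-body counts in every library. In the exon table it had 34.1, 35.6, 33.4 and 30.2 CPM in TM libraries, against 28.1, 22.8 and 32.2 CPM in ctr libraries, with a log2 fold change of 0.27 (SE 0.14, adjusted p = 0.340). In all, 31 members overlap another gene on the same strand, and 26 of these hold snoRNAs. Of all members 9 lose more than 20% of their length, among them RpS27A, RpL22 and RpS7 down to 40.2%, 47.8% and 62.2%. Per countable kilobase, a length chosen after seeing the data, the member median was 60.0 CPM. The exon table's strand setting is not given in the sources used here, and 24 members overlap a gene on the opposite strand, so a part of an exon count may come from that strand.

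In TM against ctr, few ribosomal protein genes passed the test, a smaller share than among all features. In the gene bodies, 2 of 83 members passed an adjusted p of 0.05 (edgeR's quasi-likelihood test, Benjamini-Hochberg over all 10917 features tested), RpL26 higher and RpL3 lower in TM. This was 2.41% of members, against a background of 10.8% of all features (4.45% higher and 6.38% lower). Over exons, 1 of 85 members passed, RpL3 again and again lower, against a background of 5.90% of 17281 features (2.82% up, 3.08% down in TM). Over the members the median log2 fold change was 0.00 in the gene bodies, with 42 above and 41 below 0, against 0.03 over all features tested. In the exons it was -0.02, with 38 above and 47 below 0, against 0.01 over all features. Both tables count the same reads, so the second is not independent support.

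How large a change relative to the other features could have gone unseen is given by the intervals. A change shared by most features is removed by TMM scaling and is not covered by them. The 95% interval of the log2 fold change lay within 0.5 of 0 for 59 of 83 members in the gene bodies and for 60 of 85 in the exons. It lay within 1 for 78 and 82 members. Of all 10917 gene-body features, 3409 were within 0.5 and 6393 within 1. The median SE was 0.12 over the members and 0.21 over all features. The 5 members with a gene-body interval beyond 1 all had low counts, and RpL29, RpL37-2, RpS19b and RpS28a were among them. At an unadjusted p under 0.05 there were 10 of 83 members in the gene bodies, against 2618 of 10917 features, and 6 of 85 in the exons, against 3313 of 17281 features. All TM libraries lay above or all below all ctr libraries for 8 of 83 members, against 23.4% of all features, and for 7 of 85 in the exons, against 19.0%.

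**Figure D2:**
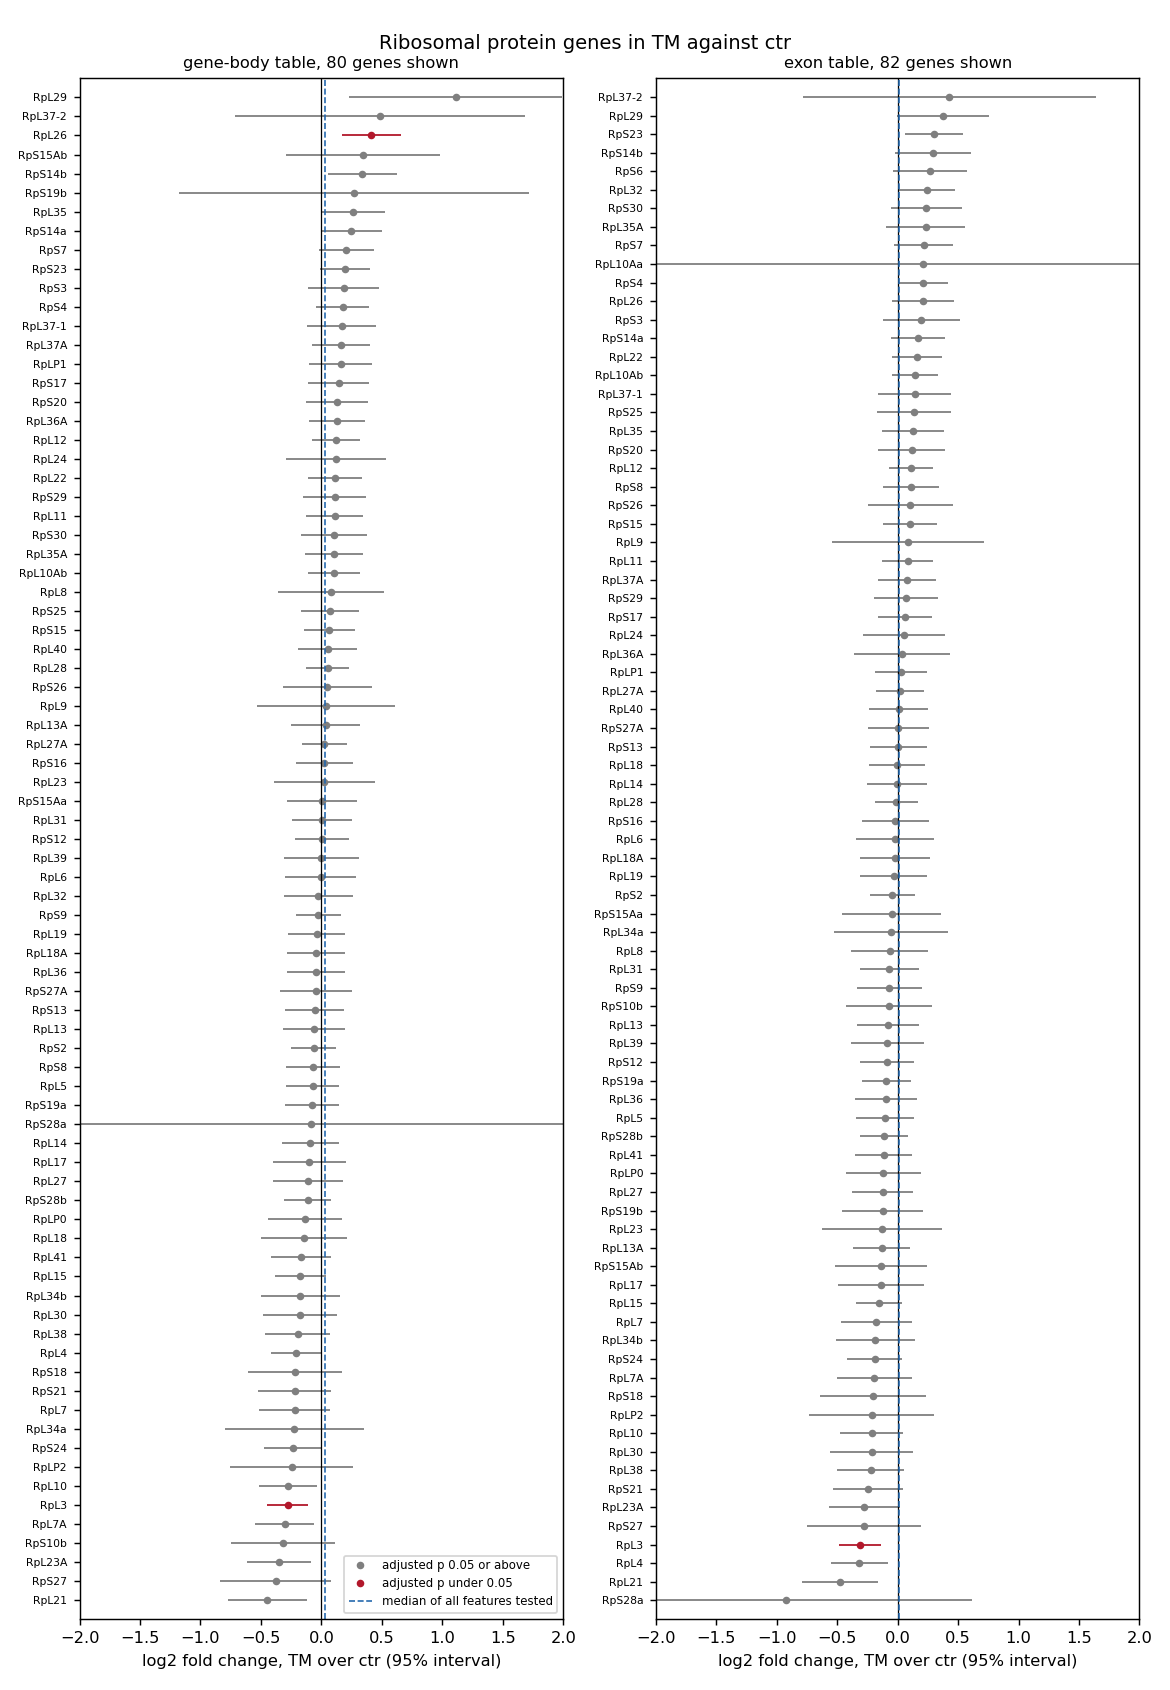
Log2 fold change of TM over ctr (horizontal axis) with its 95% interval for the ribosomal protein genes tested (rows, ordered by value; a few are not shown), in the gene-body table (left) and the exon table (right); red marks an adjusted p under 0.05, the dashed line the median of all features, and intervals are cut at 2 on either side. Most intervals cross 0, with RpL26 (0.41) and RpL3 (-0.28) marked on the left and RpL3 (-0.31) on the right.

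RpL3 fell in TM in both tables. Its gene body had 470.4, 517, 473 and 506 CPM in TM libraries, against 638, 571 and 580.5 CPM in ctr libraries, and every TM library was below every ctr library. Its log2 fold change was -0.28 (SE 0.08, 95% interval -0.45 to -0.11, adjusted p = 0.0348, edgeR). Over exons it had 223, 231, 208 and 224 CPM in TM libraries, against 295, 255 and 275 CPM in ctr libraries, a log2 fold change of -0.31 (SE 0.08, adjusted p = 0.0362, edgeR). The call was lost (adjusted p = 0.0639 to 0.190 in the gene bodies, 0.0534 to 0.198 in the exons) without any 1 of the libraries other than TM 4. With library totals in place of TMM scaling it was -0.22 in the gene bodies (adjusted p = 0.102).

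RpL26, a large subunit protein near the exit of the nascent chain, rose in TM in the gene bodies. It had 82.2, 103, 86.1 and 77.9 CPM in TM libraries, against 66.9, 63.1 and 66.9 CPM in ctr libraries, with no overlap, and a log2 fold change of 0.41 (SE 0.12, 95% interval 0.17 to 0.66, adjusted p = 0.0310, edgeR). Over exons it had 54.3, 70.6, 53.7 and 54.6 CPM in TM libraries, against 56.9, 44.8 and 49.7 CPM in ctr libraries. There the groups overlapped, and the log2 fold change was 0.21 (SE 0.12, adjusted p = 0.390). The gene-body call was lost without TM 2 (0.32, adjusted p = 0.121), without TM 3 (0.42, adjusted p = 0.0697) and without each ctr library (0.38 to 0.43, adjusted p = 0.0766 to 0.128).

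**Figure D3:**
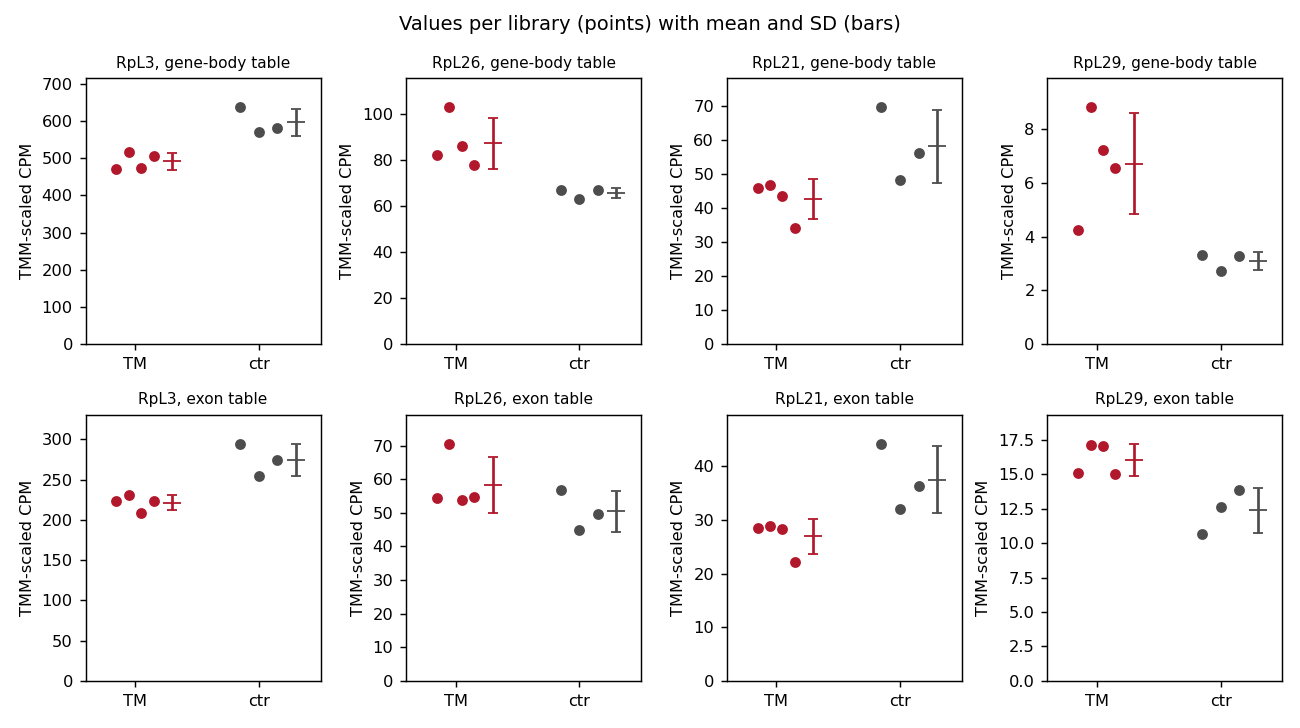
TMM-scaled CPM per library (points; TM left in red, ctr right in grey) with mean and SD (bars) for RpL3, RpL26, RpL21 and RpL29 in the gene-body table (top) and the exon table (bottom). All TM points of RpL3 and RpL21 lie below the ctr points in both tables, while those of RpL26 lie above only in the gene bodies, at 77.9 to 103 CPM against 63.1 to 66.9 CPM.

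The members with the lowest and highest log2 fold changes did not otherwise pass. RpL21 had 46.1, 46.7, 43.7 and 34.1 CPM in TM libraries, against 69.8, 48.4 and 56.3 CPM in ctr libraries. It was lowest in the gene bodies at -0.45 (SE 0.15, adjusted p = 0.0763), and at -0.48 in the exons (SE 0.15, adjusted p = 0.0743). Its groups did not overlap in either table. RpS27 and RpL23A followed in the gene bodies at -0.38 and -0.35, with adjusted p of 0.314 and 0.0852. In the exons RpS28a at -0.92 (SE 0.72) and RpL4 at -0.32 were among the lowest. RpL29, the highest in the gene bodies, had only 4.26, 8.82, 7.22 and 6.55 CPM in TM libraries, against 3.33, 2.72 and 3.26 CPM in ctr libraries. Its log2 fold change was 1.11 there (SE 0.42, adjusted p = 0.104) and 0.38 in the exons (SE 0.18, adjusted p = 0.269), where it had 15.04 to 17.1 CPM in TM and 10.7 to 13.8 CPM in ctr libraries. The exon counts of RpL29 are above its gene-body counts in every library, for a reason not given in the sources used here. RpL37-2 was high in both tables, at 0.48 and 0.43, with an SE of 0.57 in each, and RpS23 in the exons at 0.30 (SE 0.11, adjusted p = 0.140).

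The stalk proteins RpLP0, RpLP1 and RpLP2, which form the arm of the large subunit that recruits translation factors, gave -0.13 (SE 0.14), 0.16 (SE 0.12) and -0.25 (SE 0.24) in the gene bodies, with adjusted p from 0.478 to 0.638. RpL32, whose mRNA is a common RT-qPCR reference, had 60.4, 71.1, 70.8 and 82.9 CPM in TM libraries, against 84.8, 61.2 and 71.8 CPM in ctr libraries, in its gene body. The groups overlapped, with a log2 fold change of -0.03 (95% interval -0.31 to 0.26, adjusted p = 0.942). Over exons RpL32 was at 0.24 (95% interval 0.01 to 0.47, adjusted p = 0.236), so the tables differed in its sign and it passed in neither.

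By chromosome arm the member medians in the gene bodies ran from -0.04 on 2L to 0.02 on 2R. In all, 5 members lie in windows next to the centromeres, where H3K9 methylation is dense in the fly: RpL21 and RpL5 beyond 22 Mb of 2L, RpL38 under 6 Mb of 2R and RpL10 and RpL15 beyond 23 Mb of 3L. RpL10, whose protein completes the large subunit, had a log2 fold change of -0.27 (SE 0.11, adjusted p = 0.147), RpL38 of -0.19 (SE 0.13), RpL15 of -0.17 (SE 0.10) and RpL5, a 5S rRNA binding protein, of -0.07 (SE 0.10) in the gene bodies. With RpL21 all 5 were below 0 in both tables, at a median of -0.19 in the gene bodies and -0.21 in the exons, and none passed the test. RpL15 had 90.7, 103, 106 and 89.9 CPM in TM libraries, against 106, 107 and 116 CPM in ctr libraries, the highest TM library just under the lowest ctr library. Over all 318 genes tested in the same windows, these 5 included, the gene-body median was 0.05. Of the 318, 30 were higher and 28 lower in TM (18.2%, against 10.8% of all features). Over exons the median of 387 such genes was only 0.0069. In both tables the 5 members stood on the other side of 0 from these medians. Their difference from the other genes there was not tested.

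Some pairs of genes for 1 protein had most of their counts on the same copy in every TM and every ctr library. RpL10Ab had 93.7, 105, 100.02 and 96.7 CPM in TM libraries, against 82.3, 93.9 and 100.2 CPM in ctr libraries, while RpL10Aa had at most 1.14 CPM in a TM and 0.364 CPM in a ctr library. RpS10b stood at 20.9 to 33.7 CPM in TM and 26.7 to 41.9 in ctr libraries, and RpS10a was at 0 in 3 of 4 TM libraries and at most 0.650 CPM in the other, against 0.158 to 0.416 CPM in ctr libraries. RpS28b had 91.8 to 107 CPM in TM and 106 to 109 in ctr libraries, and RpS28a, a gene with no intron, at most 2.82 CPM in TM and 2.58 in ctr libraries. The gene-body log2 fold changes were -0.11 for RpS28b (SE 0.09, adjusted p = 0.506) and -0.32 for RpS10b (SE 0.20, adjusted p = 0.366).

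Other pairs were used side by side. RpL34a took 33.7% to 46.1% of the pair's CPM per exon kilobase in TM and 31.8% to 45.7% in ctr libraries, and RpL37-2 16.1% to 36.5% of that of RpL37-1 and RpL37-2 in TM and 10.99% to 34.6% in ctr libraries. The RpL37 pair lies outside the rule that fixed the pairs and was added after its values were seen. RpS14a and RpS14b, neighbours on the X, and RpS15Aa and RpS15Ab share sequence: 35.9%, 37.6%, 15.9% and 38.4% of their stretches of 30 bases recur elsewhere in the genome. Their counts are uncertain for that reason. RpS14b was at 49.4, 52.8, 46.6 and 47.5 CPM in TM libraries, against 34.7, 39.4 and 42.2 CPM in ctr libraries, with no overlap. Its log2 fold change was 0.34 in the gene bodies (SE 0.14, adjusted p = 0.128), and that of RpS14a 0.25 (SE 0.12, adjusted p = 0.223). RpS15Aa was at 0.01 and RpS15Ab at 0.35 (SE 0.30) in the gene bodies, and both were below 0 in the exons. RpS19b, the germline copy of RpS19a, depended on the table: it took 2.27% to 7.65% of the pair's CPM per gene-body kilobase in TM and 0.993% to 7.40% in ctr libraries, but 36.7% to 41.5% in TM and 34.1% to 44.9% in ctr libraries over exons. None of its 30-base stretches recurs elsewhere, and no source used here gives the reason. Its log2 fold change was 0.27 (SE 0.68) in the gene bodies and -0.12 (SE 0.16) in the exons.

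**Figure D4:**
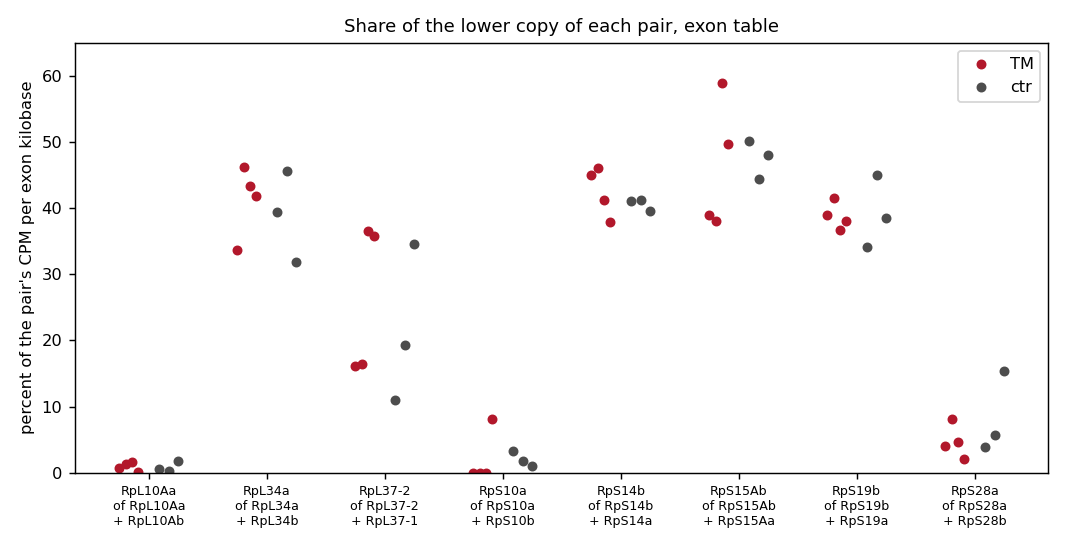
Share of the lower copy in each pair's CPM per exon kilobase, in percent (vertical axis), per library (points; TM left in red, ctr right in grey), for 8 pairs. TM and ctr points overlap in every pair shown; RpL10Aa reaches at most 1.56% in TM and 1.79% in ctr, RpS10a at most 8.15% in TM and less in ctr, and RpS14b, RpS15Ab and RpS19b lie between 34.1% and 59.0%.

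The introns of 26 members hold 68 annotated snoRNAs, 30.2% of members against 0.592% of all 13845 protein-coding genes in the table. Reads on a nested snoRNA overlap its host, so all 68 have 0 gene-body counts and only the exon table counts reads on them. A read there can come from the snoRNA or from the host's unspliced intron, and the counts do not tell these apart. The 68 were looked at after the values of their hosts were known. In the exon table they summed to 464, 520.1, 524 and 503 CPM in TM libraries, against 715, 841 and 731 CPM in ctr libraries. Every TM library was below every ctr library. Over all features of the exon table, 5.90% passed in either direction and 3.08% were lower in TM. Of the 68, 11 (16.2%) were lower and 0 higher (edgeR's quasi-likelihood test, adjusted over all those features). Without ctr 2 the count was 7. Their log2 fold changes ran from -1.47 to -0.76, and 60 of the 68 were below 0. The median over the 68 was -0.45. Among other nested snoRNAs, 7 of 124 (5.65%) were lower and 0 higher, at a median of -0.32. Among snoRNAs outside protein-coding genes, 18 of 61 were lower and 1 higher, at a median of -0.53. The lower snoRNA values were therefore not particular to these hosts.

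The exons of the 26 hosts summed to 1550, 1611, 1601 and 1582 CPM in TM libraries, against 1669, 1559 and 1648 CPM in ctr libraries, and the groups overlapped. The 11 snoRNAs lie in 8 hosts, whose exon log2 fold changes ran from -0.31 to 0.11, and RpL3 alone passed among them. The difference between a host and its snoRNAs was not tested. Sequences are shown for the 3 snoRNAs with the smallest adjusted p on arms 2L, 3L and 3R, read from the dm6 genome, with TGATGA (in box C) in the first 20 bases and CTGA (box D) in the last 20 in capitals. Both strings stood at these places in 16 of the 68 (23.5%) and in 34.4% of 189 other snoRNAs.
snoRNA:Me28S-A2113 in RpL30, chr2L:19008611-19008683, minus strand: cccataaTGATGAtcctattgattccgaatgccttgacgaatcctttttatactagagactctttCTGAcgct
snoRNA:Me18S-C1096 in RpL3, chr3R:11222405-11222489, plus strand: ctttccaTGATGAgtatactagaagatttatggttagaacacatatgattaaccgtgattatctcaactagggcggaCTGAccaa
snoRNA:Or-CD12 in RpL28, chr3L:3221350-3221427, minus strand: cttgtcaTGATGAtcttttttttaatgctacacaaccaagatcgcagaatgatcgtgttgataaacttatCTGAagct
The first, named for a methylation of 28S rRNA, had 459, 490, 660 and 580 exon-table counts in TM libraries, against 1088, 1703 and 1169 in ctr libraries, at a log2 fold change of -1.34 (adjusted p = 4.41e-04, edgeR). The snoRNA in RpL3, named for a methylation of 18S rRNA, had 473, 480, 491 and 619 counts in TM libraries, against 946, 1392 and 1040 in ctr libraries, at -1.21 (adjusted p = 5.08e-04, edgeR). The one in RpL28 was at -1.19 (adjusted p = 0.00289, edgeR).

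**Figure D5:**
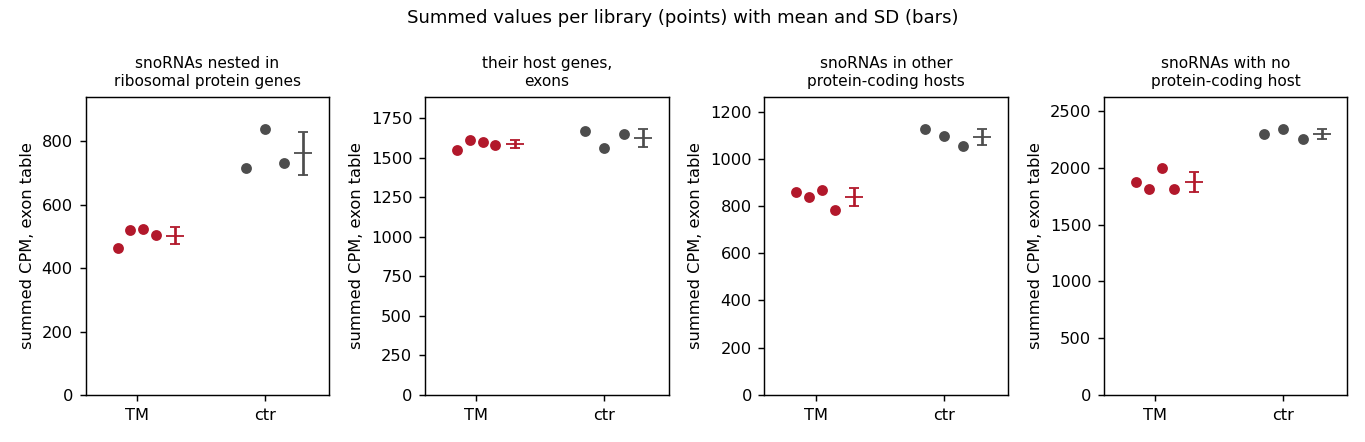
Summed CPM per library in the exon table (points; TM left in red, ctr right in grey) with mean and SD (bars), for the 68 snoRNAs nested in ribosomal protein genes, the 26 host genes, 124 snoRNAs in other protein-coding hosts and 61 with no protein-coding host. Nested snoRNAs lie at 464 to 524 CPM in TM and 715 to 841 CPM in ctr, while the hosts overlap at 1550 to 1611 CPM in TM and 1559 to 1669 CPM in ctr.

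Medians were close between promoter classes. The gene-body median was 0.01 for the 25 tested with a DRE, -0.03 for the 29 tested with CTTT at the start and 0.01 for the 37 tested with neither. Related genes of translation are given for comparison. Of all features, 10.8% passed in the gene bodies and 5.90% in the exons, with 6.38% and 3.08% lower in TM. Of 72 mitochondrial ribosomal protein genes, 70 were tested in the gene bodies, of which 2 were higher (mRpS17 at 0.46 and mRpL19 at 0.40) and 1 lower (mRpS9 at -0.61), at a median of 0.03. In the exons 1 was higher (mRpL19) and 2 lower (mRpL38 and mRpS2) of 72 tested. Of 54 genes named eIF, eEF or eRF, 47 were tested in the gene bodies, at a median of -0.07. Of these, 0 were higher and 7 lower (14.9%, background 10.8% in either direction and 6.38% lower). The 2 largest changes among those were eIF4E1, the cap-binding protein, at -0.72 (SE 0.11, adjusted p = 5.96e-04, edgeR) and eIF2Bepsilon at -0.71 (SE 0.17, adjusted p = 0.0152, edgeR). In the exons 3 of 49 were lower, eIF4A, an RNA helicase, at -0.64, eIF4E1 at -0.56 and eEF5 at -0.47. There eIF2Bepsilon was only at -0.12 (SE 0.13, adjusted p = 0.694, edgeR). Of 26 genes of ribosome biogenesis and RNA polymerase I, 25 were tested, with 0 higher and 2 lower, wcd at -0.51 and Tif-IA, a polymerase I initiation factor, at -0.44, and in the exons wcd alone was lower at -0.45. Of 7 regulators (Trf2, Dref, M1BP, Myc, Maf1, Tor and S6k), Tor was not matched to a gene ID, Myc was not tested in the gene bodies, and of the 5 tested 0 passed (0 at an unadjusted p under 0.05), with values from -0.11 to 0.07.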

How the data were processed

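Gro-seq libraries were made from nuclei of cycle 14 embryos (TM, n = 4; ctr, n = 3), grouped by the genotype in the labels. The authors trimmed reads with Cutadapt, aligned them to dm6 with Bowtie2 2.3.3.1, and deposited raw counts per gene body (featureCounts of Subread 1.5.3, sense strand, mapping quality of at least 3, reads on more than 1 gene left out) and estimated counts per gene and repeat over exons, deposited by the authors from TEtranscripts, which shares multi-mapping reads. Symbols came from Ensembl release 115, for 17626 of 17753 IDs, and coordinates of 85 of 86 members were equal in both.

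Estimated counts were rounded to whole numbers. Each table was fitted with edgeR 4.0.16 (R 4.3.3; glmQLFit with robust = TRUE, glmQLFTest, TMM, condition alone) on features that averaged 10 or more counts over the libraries, with Benjamini-Hochberg adjustment across every feature fitted. CPM values are TMM-scaled. Scripts were tested on simulated data. The members, lists and tests were chosen with earlier results of these data known. Genes named are those past an adjusted p of 0.05, the 3 largest and 3 smallest log2 fold changes per table, the 5 highest and 5 lowest levels, copies a and b of a protein, members in the centromere windows, the stalk proteins and RpL32; a few members are not reported here by name. Alternatives were DESeq2 1.42.0, its size factors, library totals, TMM from genes alone, other filters, a replicate block, lengths and member subsets, and leaving out each library.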

Additional observations from a re-analysis of the deposited data

Results flagged for a closer look

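Among 73 groups of 4 TM values looked at, 2 held a library far from the others, where chance gives about 1 in 20. RpL21 had 22.1 CPM in TM 4 in the exon table, against 28.3 to 28.9 CPM in the other TM libraries and 32.1 to 44.2 CPM in ctr libraries. RpL26 had 70.6 CPM in TM 2 in the exon table, against 53.7 to 54.6 CPM in the other TM libraries and 44.8 to 56.9 CPM in ctr libraries.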

How the results depend on the processing

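The count of members past the threshold in the gene bodies (2) was 2 with DESeq2, its size factors, both filters and the replicate block, 1 with library totals (RpL26) and 0 to 2 with 1 library left out. In the exons (1, RpL3) it was 1 with DESeq2, its size factors, library totals, TMM from genes alone and the stricter filter, 2 with no filter beyond 1 count (RpL21 joined, adjusted p = 0.0333), 2 with the replicate block and 0 to 2 with 1 library left out. The gene-body median (0.00) was 0.0637 with library totals, where the median of all features was 0.0904, -0.0253 with the replicate block, and -0.0236 to 0.0214 with 1 library left out. The exon median (-0.02) was -0.0835 with library totals, where that of all features was -0.0477, and -0.0376 to 0.00402 with 1 library left out. The replicate numbers did not pair the libraries: same-number correlations of deviations were 0.0717, -0.0872 and -0.0183 in the gene bodies and 0.0859, 0.0381 and 0.173 in the exons. The replicate block gave 1526 calls over all gene-body features against 1183 without it. No ctr library shares the number of TM 4, so TM 4 adds nothing to the contrast in the block fit. Leaving TM 4 out without the block gave 1667 calls. The nested snoRNAs past the threshold (11) were 7 without ctr 2 and 7 to 11 with any 1 library left out, and 11 to 13 under the other alternatives, all lower in TM.

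The difference in share, TM minus ctr, of 0.0157 percentage points was -0.0061 for gene counts in the exon table and -0.0225 with repeats in the total, and 0.00281 to 0.0261 with 1 library left out. The median level of 55.4 CPM per kilobase was 45.5 over exons and 60.0 per countable kilobase. For the 37 named genes, 943 recomputed values gave no call in the opposite direction, 18 lost calls (RpL3 and RpL26), 1 gained call and 46 changes of sign with no call. Members with few counts limit the depth: RpS28a and RpL10Aa allow no statement on direction.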
